A study of Mus musculus with 10 samples.

Results

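The genes described here handle water and set the concentration of urine: 7 aquaporin genes (Aqp1, Aqp2, Aqp3, Aqp4, Aqp6, Aqp7 and Aqp11), the vasopressin receptor gene Avpr2, the sodium-potassium-chloride cotransporter gene Slc12a1 and the uromodulin gene Umod. They were chosen by name, by matching their symbols to the Entrez Gene IDs that name the rows of the expression table, and all 10 had a row among 16475 gene rows. Expression was measured in kidney cortex from which glomeruli had been removed. There were 5 diabetic db/db mice, homozygous for the db allele of Lepr, the leptin receptor gene, and 5 non-diabetic db/m littermates, which have 1 such allele. All mice were on the BKS background and 24 weeks old. The labels name no treatment and do not give the sex. Each mouse gave 1 Affymetrix array, and levels are log2 expression values.

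Water leaves the tubule through aquaporins, which are membrane channels, wherever there is an osmotic gradient to draw it. The thick ascending limb builds that gradient by taking up salt without water, chiefly through the cotransporter encoded by Slc12a1. Vasopressin then acts on its V2 receptor in the collecting duct, raises cAMP, and brings aquaporin-2 to the apical membrane of principal cells. In diabetes the glucose that stays in the urine carries water with it, and urine flow is high.

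Of the 10 genes, Aqp6 rose in db/db with all 10 arrays, and Aqp2 and Aqp6 rose once db/db 1 was left out. None of them fell in either comparison. Aqp6 was 2.03-fold higher in db/db than in db/m, or 2.31-fold without db/db 1, and Aqp2 was 1.48-fold higher without db/db 1. With all arrays 1 of 10 genes was higher and 0 lower at an adjusted p under 0.05, while 6.51% of all genes were called in either direction, 2.96% higher and 3.54% lower. Without db/db 1 the counts were 2 higher and 0 lower, beside 12.8% of all genes, 6.84% higher and 5.93% lower. At an unadjusted p under 0.05 they were 1 of 10 with all arrays and 2 of 10 without db/db 1, beside 21.5% and 26.5% of all genes. The median change of the 10 genes was -0.12 with all arrays, where that of all genes was -0.03. With db/db 1 left out it was 0.09, where that of all genes was -0.01. Each change is a difference of log2 means, db/db minus db/m, given with its standard error in limma, whose p values were adjusted over all genes with the Benjamini-Hochberg method.

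The array of db/db 1 stood apart from the others, and the comparisons of the 10 genes are given with and without it. Over all genes, Pearson's r between db/db 1 and each other array was 0.938 to 0.962, and no pair among the remaining 9 fell under 0.985. In db/db 1 a list of 7 leukocyte markers lay 3.85 above the db/m mean and a list of 5 tubular injury markers 4.70 above it. The means of these lists were also higher in db/db 2, by 1.44 and 2.0, and in db/db 3, by 0.74 and 1.09. In db/db 3 S100a8 (11.00), S100a9 (12.31) and Itgam (5.02) lay above every db/m mouse, and Ptprc, Adgre1, Cd68 and Cd3e below every one. Of the injury list Lcn2 (11.57), Clu and Cdkn1a lay above every db/m mouse in db/db 3, Krt20 within their range and Havcr1 (5.36) below it. In db/db 4 and 5 the leukocyte list lay at -0.57 and -0.82 and the injury list at 0.45 and 0.38. The tissue label was checked on 8 proximal tubule markers, whose mean level was 12.30 to 13.12 in db/db and 12.80 to 12.99 in db/m. Podocyte markers, of cells that the removal of glomeruli should deplete, were still present: the mean of 5 was 9.05 to 9.44 in db/db and 8.65 to 9.0 in db/m, and 3 of 5 rose with all arrays and 5 of 5 without db/db 1. Lepr itself was dim, at 4.48 in db/db (4.53 without db/db 1) and 4.56 in db/m, and a level cannot show which allele a mouse carries. In whole tissue, fewer cells of a type and less RNA per cell cannot be told apart.

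**Figure D1:**
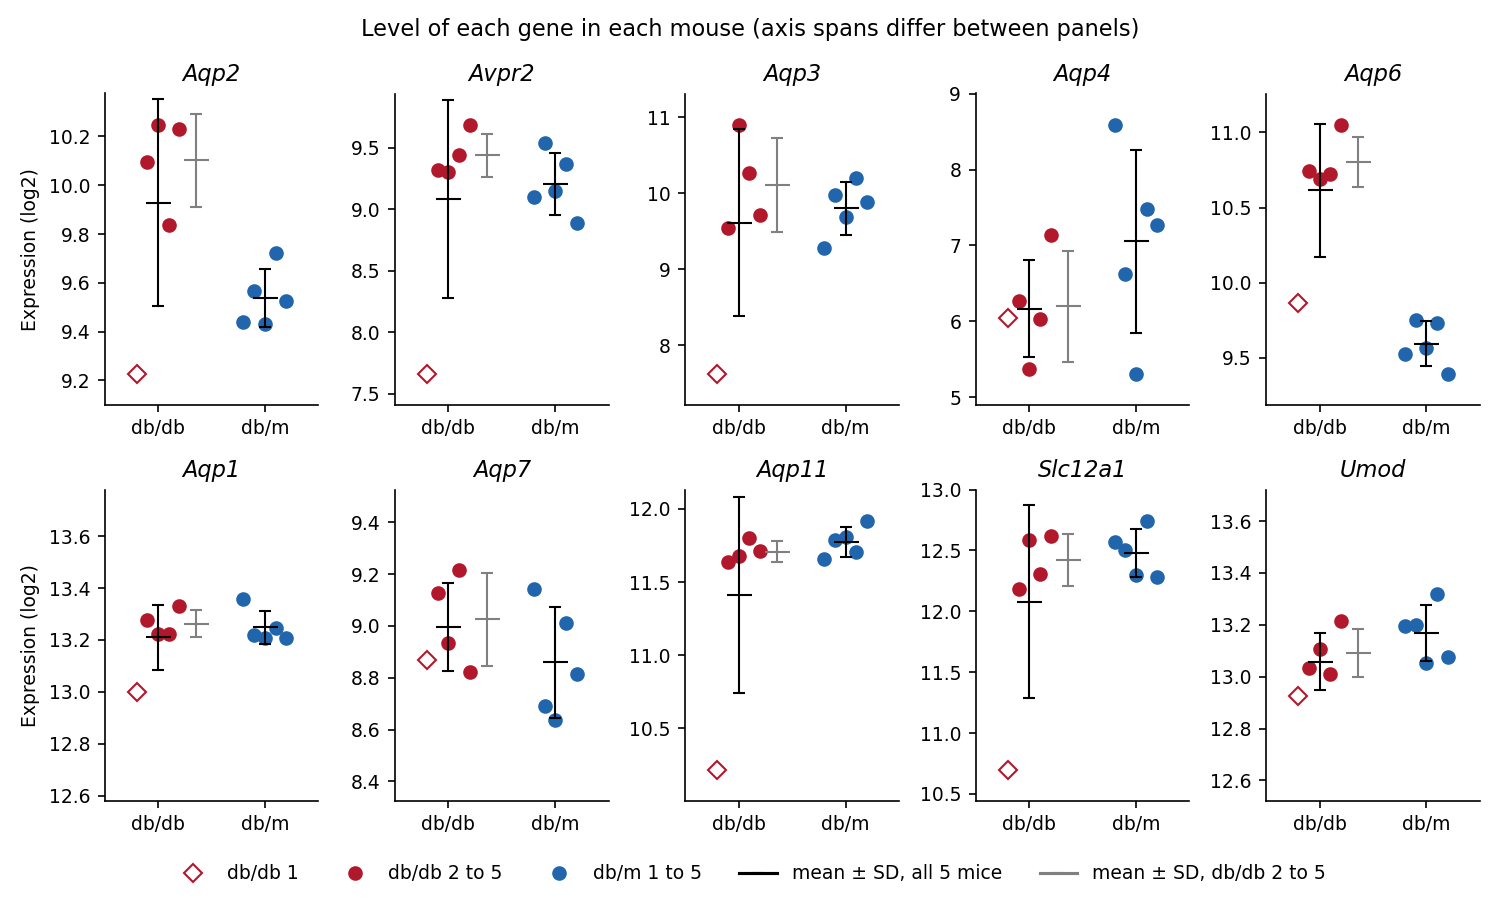
Level of each of the 10 genes (log2 expression, vertical axis) in each db/db and db/m mouse, 1 point a mouse, with db/db 1 as an open diamond and bars for the mean and SD. For Aqp6 the 5 db/db mice lie between 9.87 and 11.05, all above the db/m mice, and for Aqp2 the db/db mice other than db/db 1 do.

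The first genes in order of role are those of vasopressin action in principal cells. Avpr2 encodes the V2 receptor. In db/db 1 to 5 it was at 7.66, 9.32, 9.30, 9.44 and 9.69, against 9.10, 9.54, 9.15, 9.37 and 8.89 in db/m 1 to 5. The groups overlapped, and db/db 1 was the lowest mouse, at 2.92-fold below the db/m mean. The change was -0.13 ± 0.34 with all arrays (limma adjusted p = 0.865, 95% interval -0.88 to 0.63) and 0.23 ± 0.14 without db/db 1 (adjusted p = 0.328, interval -0.07 to 0.53). Neither passed the threshold, and the sign turned with db/db 1.

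Aqp2 encodes the vasopressin-regulated apical water channel of principal cells. In db/db 1 to 5 it was at 9.23, 10.09, 10.25, 9.84 and 10.23, against 9.44, 9.57, 9.43, 9.72 and 9.53 in db/m 1 to 5. In db/db 2 to 5 it lay above every db/m mouse, whereas db/db 1 lay below every db/m mouse. Aqp2 averaged 9.93 ± 0.42 in db/db and 9.54 ± 0.12 in db/m (SD, n = 5 each), a change of 0.39 ± 0.18 that did not pass (limma adjusted p = 0.248, interval -0.01 to 0.79). Over db/db 2 to 5 the mean was 10.10 ± 0.19 (SD, n = 4), and against db/m Aqp2 rose by 0.57 ± 0.10 (limma adjusted p = 0.00611, interval 0.34 to 0.79). This call held in all 9 fits that left out a further array, with adjusted p up to 0.0204. The groups did not overlap without db/db 1 for 2 of the 10 genes, Aqp2 and Aqp6, and for 15.4% of all genes, 7.76% higher and 7.61% lower.

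The DNA before the Aqp2 and Aqp6 starts is shown because these are the genes that rose, and because the Aqp2 promoter is known for a cAMP response element (CRE). RefSeq promoters for GRCm38.p6 were used for 9 of the 10 genes, and Aqp4 was left out of the search. For Aqp2 and Aqp6 the 250 bases before the start are printed. The Aqp2 window is chr15:99578806-99579055 and the Aqp6 window chr15:99600950-99601199, both on the plus strand. Capitals mark matches, on either strand, to the first 7 letters of the CRE, TGACGTC, which reads GACGTCA from the other strand, and to a GATA motif, AGATAA, which reads TTATCT from the other strand.
Aqp2: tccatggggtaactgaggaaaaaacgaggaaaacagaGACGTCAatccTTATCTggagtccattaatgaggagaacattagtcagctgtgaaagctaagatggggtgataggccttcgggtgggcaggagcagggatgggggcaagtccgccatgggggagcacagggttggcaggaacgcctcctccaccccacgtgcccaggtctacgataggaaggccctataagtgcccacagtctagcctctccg
Aqp6: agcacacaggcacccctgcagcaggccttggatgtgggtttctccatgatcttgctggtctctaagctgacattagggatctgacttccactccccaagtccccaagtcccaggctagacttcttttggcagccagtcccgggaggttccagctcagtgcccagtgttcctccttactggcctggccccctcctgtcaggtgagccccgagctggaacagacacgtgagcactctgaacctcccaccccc
The CRE match in Aqp2 lies 213 to 207 bases before the start and the GATA match 202 to 197 bases before it. Among 32851 RefSeq promoter windows of the same length, 2.78% held the 7 letters and 9.99% the GATA motif. The shorter CRE piece TGACG, which lies inside the longer match, was in 17.8% of the windows. None of these motifs was found in the Aqp6 window. Among the other genes searched, Aqp7, which passed in neither fit, held the GATA motif 132 to 127 bases before its start. No other gene searched held any of the motifs. A match is a run of letters and not a measured binding site.

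Aqp3 and Aqp4 encode the channels of the basolateral membrane, through which water leaves principal cells. Aqp3 was at 7.63, 9.55, 10.90, 10.27 and 9.71 in db/db 1 to 5, against 9.28, 9.98, 9.68, 10.20 and 9.88 in db/m 1 to 5. Of the 10 genes it had the largest drop in db/db 1, 4.51-fold below the db/m mean, while db/db 3 and 4 lay above every db/m mouse. The spread within db/db 2 to 5 alone was 1.35 log2 units from the lowest to the highest. The change was -0.19 ± 0.51 with all arrays (limma adjusted p = 0.861, interval -1.32 to 0.94) and 0.30 ± 0.28 without db/db 1 (adjusted p = 0.557, interval -0.32 to 0.92). It passed in neither fit, and its sign turned with db/db 1.

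Aqp4 is known in mouse from the collecting duct and from the last segment of the proximal tubule. It was at 6.04, 6.26, 5.36, 6.03 and 7.14 in db/db 1 to 5, against 8.59, 6.62, 5.31, 7.48 and 7.27 in db/m 1 to 5. The groups overlapped, and the db/m mice alone spanned 3.28 log2 units, the widest range of the 10 genes in that group. The change was -0.89 ± 0.54 with all arrays (limma adjusted p = 0.384) and -0.86 ± 0.59 without db/db 1 (adjusted p = 0.409). Its interval, -2.10 to 0.32 with all arrays, is the widest of the 10, so neither a large fall nor a small rise could be told from no change. A list of 4 inner medulla and thin limb markers had a mean level of 6.63 to 7.69 in db/db and 6.59 to 7.05 in db/m. Its part in the spread of Aqp4 was not tested.

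Aqp6 encodes an aquaporin that sits on intracellular vesicles of acid-secreting intercalated cells and is known from rat to carry anions. Its level was 9.87, 10.75, 10.69, 10.72 and 11.05 in db/db 1 to 5, against 9.53, 9.75, 9.56, 9.73 and 9.40 in db/m 1 to 5. Every db/db mouse lay above every db/m mouse, db/db 1 by the smallest margin. Aqp6 was the 1 gene of the 10 whose groups did not overlap with all arrays, where 10.2% of all genes did not, 4.35% higher and 5.85% lower. It averaged 10.62 ± 0.44 in db/db and 9.59 ± 0.15 in db/m (SD, n = 5 each), a rise of 1.02 ± 0.19 (limma adjusted p = 0.014, interval 0.59 to 1.45). Leaving out db/db 1, the rise was 1.21 ± 0.10 (limma adjusted p = 0.000217, interval 0.98 to 1.44). The call with all arrays held in each of the 10 fits that left out 1 array, the highest adjusted p being 0.0429.

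**Figure D2:**
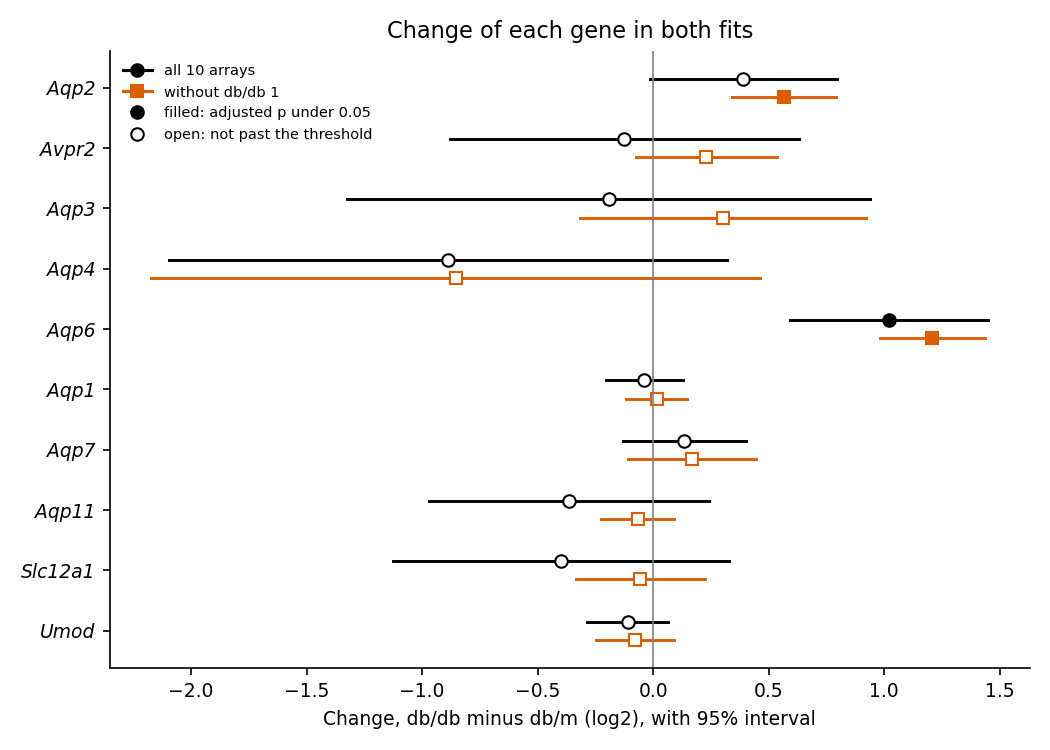
Change of each gene, db/db minus db/m in log2 units on the horizontal axis, with its 95% interval, for all 10 arrays (circles) and without db/db 1 (squares); filled symbols are past an adjusted p of 0.05. Aqp6 is filled in both fits and Aqp2 in the fit without db/db 1, and the intervals of the other 8 genes hold 0 in both.

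The proximal tubule takes back most of the filtered water through aquaporin-1, the channel encoded by Aqp1. Aqp1 was at 13.001, 13.28, 13.22, 13.22 and 13.33 in db/db 1 to 5, against 13.36, 13.22, 13.21, 13.25 and 13.21 in db/m 1 to 5. It lay near the top of the scale, whose highest value was 14.5. The groups overlapped, with db/db 1 the lowest mouse and db/m 1 the highest. The change was -0.04 ± 0.07 with all arrays (limma adjusted p = 0.814). In db/db 2 to 5 against db/m the change was 0.01 ± 0.06 (limma adjusted p = 0.917), and the interval of -0.12 to 0.15 corresponds to 0.922- to 1.11-fold.

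Aqp7 encodes a channel for water and glycerol in the last proximal tubule segment. Its level was 8.87, 9.13, 8.94, 9.22 and 8.82 in db/db 1 to 5, against 9.14, 8.69, 8.64, 9.01 and 8.81 in db/m 1 to 5. The groups overlapped over most of their ranges, and db/db 1 lay at the db/m mean. The change was 0.14 ± 0.12 with all arrays (limma adjusted p = 0.561) and 0.17 ± 0.12 without db/db 1 (adjusted p = 0.451).

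Aqp11 encodes a channel of the endoplasmic reticulum of proximal tubule cells, and mice without it develop cystic kidneys. It was at 10.22, 11.63, 11.68, 11.80 and 11.72 in db/db 1 to 5, against 11.66, 11.79, 11.81, 11.70 and 11.92 in db/m 1 to 5. The other db/db mice overlapped the db/m mice and lay within 0.17 log2 units of each other, while db/db 1 lay 2.94-fold below the db/m mean. The change was -0.37 ± 0.27 with all arrays (limma adjusted p = 0.487) and -0.07 ± 0.07 without db/db 1 (adjusted p = 0.617, interval -0.22 to 0.09).

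In the thick ascending limb, Slc12a1 encodes the cotransporter that loop diuretics block. It was at 10.70, 12.18, 12.59, 12.31 and 12.62 in db/db 1 to 5, against 12.57, 12.50, 12.30, 12.74 and 12.28 in db/m 1 to 5. In db/db 3, 4 and 5 it lay within the db/m range, while db/db 2 lay just below that range and db/db 1 lay 3.43-fold below the db/m mean. The change was -0.40 ± 0.33 with all arrays (limma adjusted p = 0.529) and -0.06 ± 0.13 without db/db 1 (adjusted p = 0.84, interval -0.34 to 0.23).

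Umod encodes uromodulin, the protein that thick ascending limb cells release into the urine in the largest amount. It was at 12.92, 13.03, 13.11, 13.01 and 13.21 in db/db 1 to 5, against 13.20, 13.20, 13.05, 13.32 and 13.08 in db/m 1 to 5. The groups overlapped, although 3 db/db mice lay below every db/m mouse. The lowest, db/db 1, lay 0.24 below the db/m mean, where Slc12a1 lay 1.78 below it in the same mouse. The change was -0.11 ± 0.08 with all arrays (limma adjusted p = 0.464) and -0.08 ± 0.08 without db/db 1 (adjusted p = 0.585, interval -0.25 to 0.09). Like Aqp1, Umod lay near the top of the scale, and a loss of contrast there was not tested for. Over the 9 arrays without db/db 1 Umod and Slc12a1 had a Pearson r of 0.90, a description of arrays that share their tissue sampling.

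**Figure D3:**
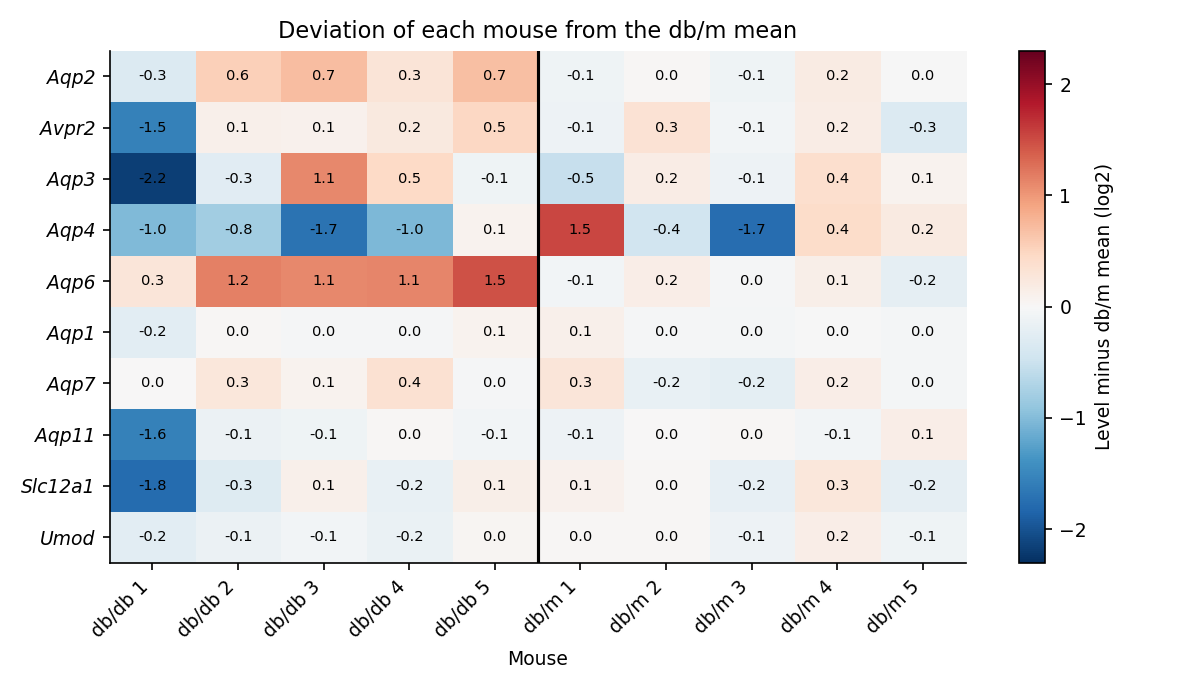
Level of each gene in each mouse minus the db/m mean (log2, colour and printed value), with db/db mice left of the line and db/m mice right of it. The row of Aqp6 is above 0 in all 5 db/db mice, and the column of db/db 1 is low for Aqp3, Slc12a1, Aqp11 and Avpr2.

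The levels in db/db 1 were the lowest of the 10 arrays for 7 of the 10 genes, and it was the lowest array for 41.6% of all genes. Its values for Aqp3, Slc12a1, Aqp11, Avpr2 and Aqp4 were 4.51-, 3.43-, 2.94-, 2.92- and 2.02-fold below the db/m mean. Aqp6, 0.27 above the db/m mean, and Aqp7, 0.01 above it, were the genes not below it in this mouse. Of the lists of tubule markers, 5 were also low in db/db 1. The distal convoluted tubule list lay 1.58 below the db/m mean, the intercalated cell list 1.37, the thick ascending limb list 0.91, the proximal tubule list 0.62 and the principal cell list 0.26. Within the distal convoluted tubule list Pvalb was farthest down, at -4.96, while Trpm6 was at 0.37. Within the principal cell list Scnn1g was at -0.61, while Gata3 was at 0.08 and Tfcp2l1 at 0.11. The other markers of both lists lay below the db/m mean. The mean of 4 inner medulla and thin limb markers lay 0.84 above it, its highest value in the 10 arrays, but the markers were split. Against the db/m mean Slc14a2 was at 3.63 and Cryab at 0.65 in db/db 1, while Epha7 was at -0.41 and Slc5a3 at -0.52. Epha7 was dim in all arrays, at 3.90 to 4.51 in db/db and 3.98 to 4.77 in db/m. The part of these cell types in the low values was not tested.

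Most markers of principal cells moved with Aqp2 and Aqp6 in the other db/db mice. The mean level of 8 principal cell markers was 10.95 to 11.13 in db/db 2 to 5 and 10.23 in db/db 1, against 10.37 to 10.60 in db/m. Of these markers 0 passed with all arrays and 6 of 8 rose without db/db 1, among them the subunit genes Scnn1b and Scnn1g of the epithelial sodium channel. Without db/db 1, Tfcp2l1 was at 0.26 (limma adjusted p = 0.0954) and Fxyd4 went the other way, at -0.09 (adjusted p = 0.537). Among all genes 6.84% were called higher in that fit. For 7 intercalated cell markers the mean was 10.09 to 10.53 in db/db 2 to 5 and 8.57 in db/db 1, against 9.67 to 10.14 in db/m. Of them 0 passed with all arrays and 2 of 7 rose without db/db 1. No marker of either list was absent, the lowest db/m mean being 7.39 for Atp6v1c2 on a scale that began at 2.50. The mean of the tubular injury list was also higher, by 0.98, in db/db 2 to 5 than in db/m, with 3 of 5 markers called. Those not called were Lcn2, at 2.28 (limma adjusted p = 0.264), and Havcr1, at -0.21 (adjusted p = 0.846). Of 7 leukocyte markers 0 were called. The part of these cell types and of injury in the rises of Aqp2 and Aqp6 was not tested.

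**Figure D4:**
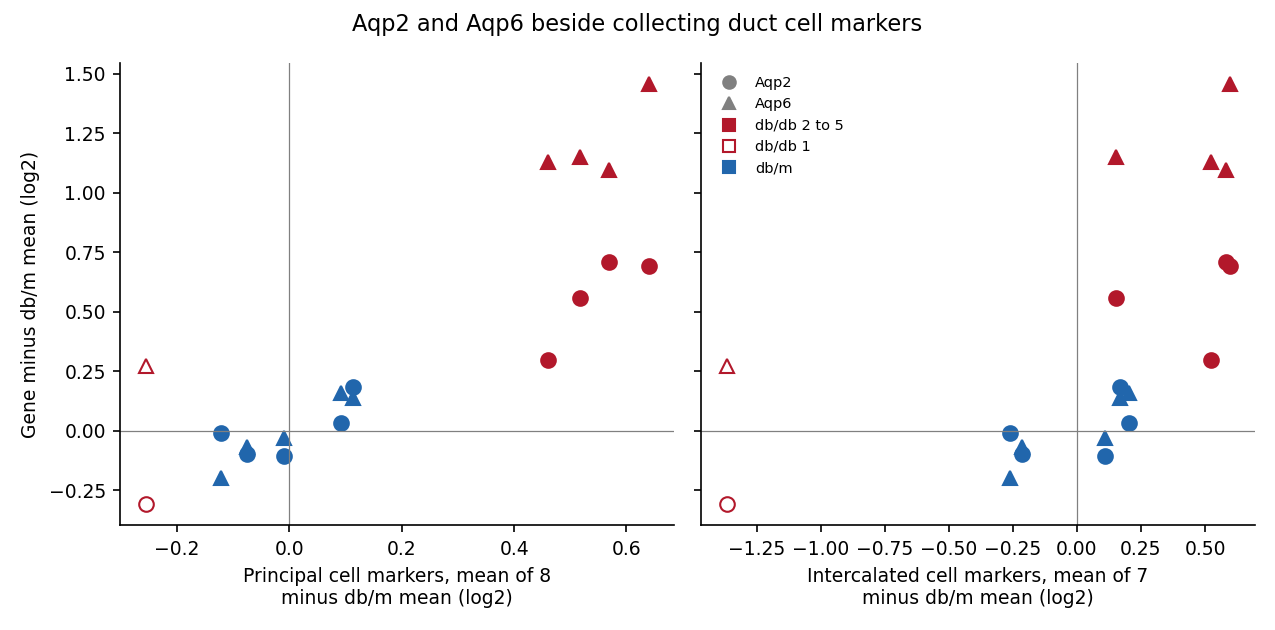
Aqp2 (circles) and Aqp6 (triangles) in each mouse, as level minus the db/m mean (log2, vertical axis), against the mean of 8 principal cell markers (left) or 7 intercalated cell markers (right), also minus its db/m mean (log2). In db/db 2 to 5 both genes and the mean of the principal cell markers lie above the db/m mice. On the horizontal axis db/db 1 (open) is farthest left in both panels, near the db/m mice at -0.26 in the left panel and apart at -1.37 in the right.

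The gene patterns nearest to Aqp2 and Aqp6 were sought over the 9 arrays without db/db 1, as the 3 genes with the highest Pearson r. For Aqp6 they were Scnn1g (r = 0.993), Scnn1b (r = 0.987) and Qrfpr (r = 0.984), a receptor gene for the peptide QRFP. For Aqp2 they were Kctd1 (r = 0.983), the keratin gene Krt7 (r = 0.970) and the early response gene Ier3 (r = 0.964). Aqp2 and Aqp6 had an r of 0.92 with each other. All these values hold the step between the groups, so any gene with a clean rise scores high.

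Beyond the 10 genes, 7 lists of genes that act with them held 66 genes with a named row in the table. With all arrays 3 rose and 3 fell, and without db/db 1 10 rose and 4 fell. That is 60 and 52 genes not called, and the shares of all genes called higher and lower are those given above. The median change was 0.02 with all arrays and 0.06 without db/db 1.

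**Figure D5:**
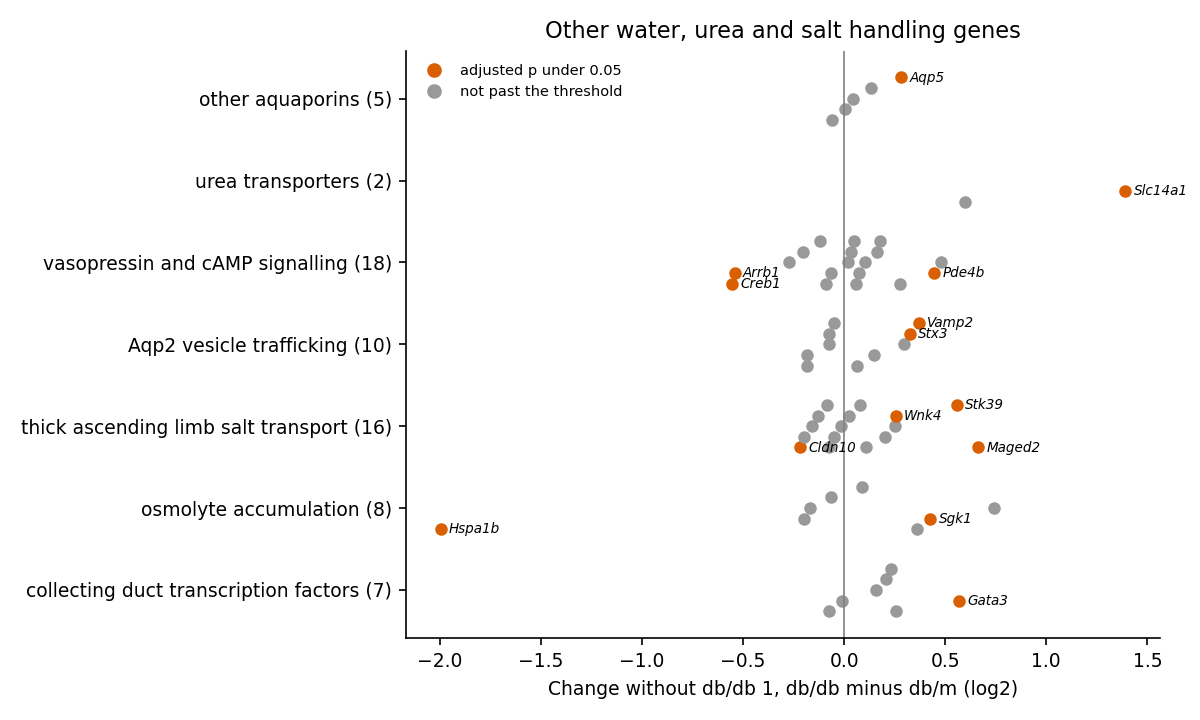
Change without db/db 1 (db/db minus db/m, log2, horizontal axis) of each of 66 genes in 7 lists, with the number of genes of each list in brackets; coloured points with names are past an adjusted p of 0.05. Slc14a1 lies farthest right at 1.39 and Hspa1b farthest left at -2.0.

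Among 2 urea transporter genes 1 rose. Slc14a1 encodes UT-B, the urea transporter of red cells and of the vessels that descend into the medulla. It was at 5.99, 6.89, 5.92, 7.05 and 6.73 in db/db 1 to 5, against 5.97, 5.09, 4.97, 5.09 and 5.15 in db/m 1 to 5. Only db/m 1 reached the db/db range. The rise was 1.26 ± 0.27 with all arrays (limma adjusted p = 0.0226) and 1.39 ± 0.26 without db/db 1 (adjusted p = 0.00792). The call with all arrays held in 4 of 10 fits that left out 1 array, the adjusted p reaching 0.0676 without db/m 3. The db/m mean, 5.25, lay below the 25th percentile of gene means, 5.71. Of 2 red cell markers, Alas2 was at 4.84 to 5.64 in db/db and 4.28 to 6.36 in db/m and was not called, and the other, Slc4a1, is also on the intercalated cell list and rose by 0.93 without db/db 1 (limma adjusted p = 0.00589). Their part in the rise of Slc14a1 was not tested. Slc14a2 encodes the urea transporter of the inner medullary collecting duct. It was at 8.56, 4.81, 4.95, 5.17 and 7.16 in db/db 1 to 5, against 4.54 to 5.24 in db/m. It passed neither with all arrays (limma adjusted p = 0.333) nor without db/db 1 (adjusted p = 0.432).

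The 5 other aquaporin genes held no call with all arrays, where 1 rose without db/db 1. This was Aqp5, known from gland and lung epithelia, which lies between Aqp2 and Aqp6 on chromosome 15. It was at 6.16, 6.73, 6.87, 6.97 and 6.84 in db/db 1 to 5, against 6.63, 6.55, 6.62, 6.43 and 6.62 in db/m 1 to 5. With all arrays it was at 0.14 ± 0.14 (limma adjusted p = 0.605). Its rise without db/db 1 was 0.28 ± 0.07 (limma adjusted p = 0.0289), and the call held in 3 of 9 fits that left out a further array, with adjusted p up to 0.0827 without db/db 4.

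Of 18 genes of vasopressin and cAMP signalling, 0 rose and 1 fell with all arrays, and 1 rose and 2 fell without db/db 1. Creb1, whose product binds CRE sequences, was at 9.37, 8.97, 8.85, 9.14 and 9.07 in db/db 1 to 5, against 9.67, 9.27, 9.61, 9.78 and 9.50 in db/m 1 to 5. It fell by 0.48 ± 0.12 with all arrays (limma adjusted p = 0.0416) and by 0.55 ± 0.11 without db/db 1 (adjusted p = 0.00892). The call with all arrays held in 2 of 10 fits that left out 1 array, the adjusted p reaching 0.105 without db/m 3. In the fit without db/db 1, Arrb1, a beta-arrestin gene that shuts off receptors such as V2, fell by 0.54 ± 0.10 (limma adjusted p = 0.00615), and Pde4b, a phosphodiesterase gene that breaks down cAMP, rose by 0.44 ± 0.11 (adjusted p = 0.0255). With all arrays these genes were at -0.36 (adjusted p = 0.31) and 0.63 (adjusted p = 0.0836). In db/db 1 Arrb1 was at 10.61, above the db/m range of 10.09 to 10.41, whereas in db/db 2 to 5 it lay below that range. Pde4b kept its call without db/db 1 in 5 of 9 fits that left out a further array, with adjusted p up to 0.0676 without db/db 3, while Creb1 and Arrb1 kept theirs in all 9.

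Of 10 genes of the vesicle traffic that carries aquaporin-2, 0 passed with all arrays and 2 rose without db/db 1. Vamp2, a vesicle fusion protein gene, averaged 10.78 ± 0.09 in db/db 2 to 5 (SD, n = 4) and 10.42 ± 0.04 in db/m (SD, n = 5), a rise of 0.37 ± 0.06 (limma adjusted p = 0.00493). Stx3, a syntaxin gene of the apical membrane, rose by 0.32 ± 0.08 (limma adjusted p = 0.0265), a call held in 4 of 9 fits that left out a further array, with adjusted p up to 0.0695 without db/db 4. In db/db 1 Vamp2 was at 10.43 and Stx3 at 10.01, within and below the db/m range, and with all arrays their changes were 0.30 (limma adjusted p = 0.0728) and 0.24 (adjusted p = 0.227).

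Of 16 genes of salt transport in the thick ascending limb, 1 rose and 1 fell with all arrays, and 3 rose and 1 fell without db/db 1. Maged2, whose loss in humans gives a salt-wasting disorder with low surface levels of the Slc12a1 product, was at 10.18, 9.85, 9.68, 9.62 and 9.91 in db/db 1 to 5, against 9.25, 8.94, 9.14, 8.93 and 9.24 in db/m 1 to 5. It rose by 0.75 ± 0.12 with all arrays (limma adjusted p = 0.00721), in every db/db mouse above every db/m mouse, and held in all 10 fits that left out 1 array. Leaving db/db 1 out gave a rise of 0.66 ± 0.10 (adjusted p = 0.0027). The kinase gene Stk39, whose product SPAK phosphorylates the Slc12a1 product, rose by 0.56 ± 0.13 without db/db 1 (limma adjusted p = 0.0226), and Wnk4, which encodes a kinase upstream of it, by 0.26 ± 0.06 (adjusted p = 0.0266). With all arrays they were at 0.47 (adjusted p = 0.0873) and 0.15 (adjusted p = 0.493). In db/db 1 Stk39 was at 9.64, within its db/m range, and Wnk4 was at 11.79, below every db/m mouse. Both are also known from the distal convoluted tubule, whose 5 markers all rose without db/db 1, and their part in these rises was not tested. Stk39 and Wnk4 kept the call in 5 and 4 of 9 fits that left out a further array, with adjusted p up to 0.058 without db/db 3 and 0.0695 without db/db 5. The claudin gene Cldn10, of the paracellular path for sodium, was lower in both fits, by 0.23 ± 0.06 with all arrays (limma adjusted p = 0.0433) and 0.22 ± 0.06 without db/db 1 (adjusted p = 0.0322). The call with all arrays held in 1 of 10 fits that left out 1 array and the other in 2 of 9 that left out a further one, the adjusted p reaching 0.125 and 0.0872 without db/m 3.

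Of 8 genes of osmolyte handling and its partners, 1 rose and 1 fell in each fit. Hspa1b, a heat shock protein gene that hypertonicity and other stresses induce, was at 10.12, 9.07, 9.64, 9.57 and 9.82 in db/db 1 to 5, against 11.52, 10.54, 12.29, 12.43 and 10.82 in db/m 1 to 5. It fell 3.67-fold with all arrays (-1.88 ± 0.37, limma adjusted p = 0.0173; without db/db 1 -2.0 ± 0.39, adjusted p = 0.00936), and the groups did not overlap. Its near-identical copy Hspa1a may share its probes, so the value need not belong to this copy alone. Sgk1, a salt- and aldosterone-induced kinase gene, rose by 0.41 ± 0.08 (limma adjusted p = 0.0201), a call lost when db/m 3 was left out (adjusted p = 0.063), and by 0.43 ± 0.09 without db/db 1 (adjusted p = 0.0112). Nfat5, which encodes the transcription factor that responds to hypertonicity, was at -0.15 ± 0.11 with all arrays (adjusted p = 0.468) and -0.20 ± 0.11 without db/db 1 (adjusted p = 0.281), and was named after its value was seen. Of 7 transcription factor genes of the collecting duct, 0 passed with all arrays, and Gata3 rose by 0.57 ± 0.13 without db/db 1 (limma adjusted p = 0.0183), a call lost without db/db 3 (adjusted p = 0.0507). With all arrays it was at 0.47 (adjusted p = 0.093).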

How the data were processed

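Each of 10 mice gave 1 array. The deposited table holds log2 expression, 1 value per Entrez Gene ID. It came from RMA, as the submitters' processing notes name it, with version and probe grouping unstated there. These values were used unchanged, without 64 control rows. Of 16475 gene rows 15780 carried 1 symbol in the supplied annotation and 695 were tested unnamed. Array medians were 8.46 to 8.66. The number of arrays limits the precision.

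The fits used limma 3.58.1 (R 4.3.3; lmFit, eBayes, two-sided) with Benjamini-Hochberg adjustment over all genes and a threshold of 0.05, with all arrays and without db/db 1. The fit of all arrays was tested on simulated data drawn with the db/m mean and SD of each gene. Those data held no array like db/db 1 and no wider spread in db/db, so the test does not cover them. Intervals are limma's, at 95%. The members, lists and tests were chosen with earlier results of these data known. Named genes were the 10 members, Lepr, up to 4 called genes of each list by size of change (or, with none, the lowest adjusted p), and the 3 genes most like each called member. Slc14a2, Atp6v1c2, Alas2, Slc4a1, Nfat5, Fxyd4, Tfcp2l1, Pvalb, Trpm6 and the single leukocyte, tubular injury and inner medulla markers were added after their values were seen. Alternatives were a replicate block, a dim-gene filter, other scalings, variance models, array weights, each array left out, and stricter calls. Software for summaries and plots was Python 3.11.15 with matplotlib 3.10.9.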

Additional observations from a re-analysis of the deposited data

Results flagged for a closer look

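In 4 of 20 sets of values, 1 set for each gene and group, a single mouse lay far from the other 4, by a rule that chance meets in about 1 of 20 such sets. Of these, 3 were db/db 1. Aqp11 was at 10.22 in db/db 1, against 11.63 to 11.80 in the other db/db mice. Avpr2 was at 7.66 in db/db 1, against 9.30 to 9.69 in the other db/db mice. Slc12a1 was at 10.70 in db/db 1, against 12.18 to 12.62 in the other db/db mice. In the db/m group, Aqp1 was at 13.36 in db/m 1, against 13.21 to 13.25 in the other db/m mice.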

How the results depend on the processing

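With all arrays 1072 genes were called, 488 higher and 584 lower. Arrays centred on their medians gave 363 higher and 751 lower. The count was 393 under a replicate block, 2641 with array weights, 279 at an adjusted p under 0.01 and 575 at a change of at least 1.5-fold. Leaving out 1 array gave 490 (db/m 3) to 2104 (db/db 1), and 644 without db/db 2, 674 without db/db 3, 684 without db/m 1, 576 without db/m 4 and 683 without db/m 5. Of the 10 genes, 2 were called with array weights, 1 to 2 with 1 array left out and 0 at an adjusted p under 0.01, where Aqp6 had 0.014 and 1 gene had an unadjusted p under 0.05. Of 2104 genes called without db/db 1, the block left 985, and leaving out a further array gave 1382 (db/m 3) to 1940.

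No pairing by mouse number was seen: deviations of same-numbered mice from their group means correlated at -0.09 to 0.01 across genes. The db/db mean held db/db 1, so its offset entered every db/db deviation and could hide a pairing. With the number as a block and db/db 1 left out, 1 of the 10 genes was called, since Aqp2 was at 0.54 with an adjusted p of 0.0744, and Aqp6 kept its call with all arrays (adjusted p = 0.0494).

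Signs turned for genes that passed in no such fit. With all arrays, array weights gave 0.000416 for Aqp1, 0.37 for Aqp3 and 0.22 for Avpr2, and the block without db/db 1 gave 0.042, 0.17 and 0.20 for these genes. With 1 array left out Aqp1 lay at -0.068 to 0.014, Aqp3 at -0.52 to 0.30 and Avpr2 at -0.28 to 0.23. Without db/db 1, centring put Aqp1 at -0.029. Leaving out a further array there gave -0.0081 to 0.042 for Aqp1, -0.12 to 0.025 for Slc12a1 and -0.0698 to 0.0076 for Lepr. Apart from the leave-outs of db/db 1, the cause was not tested. The 4 or 5 arrays a group limit the size of difference that could be seen.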

Other observations

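Aqp2, Aqp5 and Aqp6 follow each other on chromosome 15 in RefSeq's gene order, and all rose without db/db 1. Their neighbours were looked up after these values were seen. Before the run, Faim2 was at -0.00300 log2 units, Bcdin3d at 0.09 and Nckap5l at 0.02 without db/db 1. After it, Racgap1 was at 0.88, Asic1 at 0.29 and Smarcd1 at 0.14. None of these neighbours passed the threshold, with limma adjusted p between 0.0803 for Racgap1 and 0.992 for Faim2. RefSeq also places a long noncoding RNA gene, Gm34765, across the run, and whether the array's probes read its RNA was not tested.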
